A study of Schizosaccharomyces pombe with 36 samples.

Results

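The libraries described here ask what a rif1 deletion added to stn1-226 does to DNA replication in fission yeast, Schizosaccharomyces pombe, grown at 25 °C. They are 8 of the 36 libraries of the series, chosen by their titles: 4 from strains labelled stn1-226 rif1 deletion and 4 from stn1-226 strains. In each condition 2 libraries come from a strain with a mutant DNA polymerase delta and 2 from a strain with a mutant DNA polymerase epsilon. All 8 come from cells with the temperature-sensitive stn1-226 allele, an rnh201 deletion marked with hphNT1, leu1-32 and ura4-, and the polymerase allele, cdc6-I591G for Pol delta and cdc20-M630F for Pol epsilon, lies between loxp and loxm3. Per the genotype labels, rif1 deletion is the one listed difference between the conditions. Each condition and polymerase is a single strain, so the replicates may be repeat libraries of that strain. Every p-value rests on the spread between libraries of a group, estimated over 32 libraries of the series in 16 groups unless another fit is named. That spread covers these samples only. Cells were in log phase in YE, a rich medium. For both conditions 25 °C is the lower of the study's culture temperatures for these strains, and the same 4 strains were also grown at 34 °C.

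Polymerase usage sequencing reads which polymerase copied each strand. The mutant polymerase leaves ribonucleotides in the DNA it makes, cells without RNase H2, whose catalytic subunit rnh201 encodes, cannot remove them, and alkali cuts the DNA there. The leading strand is made mainly by Pol epsilon and the lagging strand mainly by Pol delta, so ends that change strand along a chromosome mark a place where forks start, and the strand bias elsewhere gives the direction of forks. Rif1 recruits protein phosphatase 1, which counteracts the kinase that activates the replicative helicase, and in fission yeast it holds back a set of late or dormant origins and sits at telomeres. Stn1 works with Ten1 to protect telomere ends and to bring in the fill-in of their lagging strand.

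In fission yeast some places bound by Rif1 carry a G-rich sequence, called the Rif1 consensus sequence here. It occurs 57 times, in 48 places, in the reference genome (RefSeq, ASM294v3, both strands searched), and 0.764% of 6284 windows of 2000 bp hold it. Of the 10 initiation sites of these data that lie within 1 kb of it, 9 are shown by the strand that carries it, because most of the 10 were among the sites that changed. The consensus is in capitals, in 101 bases around it or in 30 bases where it lies in an untranslated region of the named gene. Sites are named by their nearest gene, and the last one shown, beside SPCC338.18, did not pass the test.
beside dpe2 (chrIII:2309727-2309827, minus strand): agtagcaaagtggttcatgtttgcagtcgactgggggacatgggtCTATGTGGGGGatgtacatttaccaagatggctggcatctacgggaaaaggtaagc
beside yea4 (chrII:1080009-1080109, minus strand): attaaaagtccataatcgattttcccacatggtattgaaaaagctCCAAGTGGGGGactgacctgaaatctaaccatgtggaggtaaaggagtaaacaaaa
beside klp3 (chrI:4706046-4706146, plus strand): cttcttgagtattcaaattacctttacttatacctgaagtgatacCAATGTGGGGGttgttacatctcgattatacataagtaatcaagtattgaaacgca
beside ubc1 (chrII:3008767-3008867, plus strand): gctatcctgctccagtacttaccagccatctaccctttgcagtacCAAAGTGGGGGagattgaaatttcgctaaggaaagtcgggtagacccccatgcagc
beside SPAC25A8.03C (chrI:2095351-2095451, plus strand): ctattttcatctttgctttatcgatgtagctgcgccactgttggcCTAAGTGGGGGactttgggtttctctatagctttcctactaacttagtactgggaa
beside nif1 (chrII:2105075-2105175, minus strand): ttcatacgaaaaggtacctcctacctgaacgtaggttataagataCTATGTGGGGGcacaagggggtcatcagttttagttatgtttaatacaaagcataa
beside mug114 (chrI:2663745-2663774, plus strand): aatgaaaggCAATGTGGGGGgatagtgggc
beside SPAC23H4.05C (chrI:1600194-1600223, minus strand): tgaagctaaaCCAAGTGGGGGagtgtgcga
beside SPCC338.18 (chrIII:1341805-1341905, minus strand): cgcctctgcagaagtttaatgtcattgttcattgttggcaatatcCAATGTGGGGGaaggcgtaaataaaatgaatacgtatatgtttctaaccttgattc

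Every sequence above holds the core GTGGGGG, which occurs 270 times in the genome and in 3.69% of the windows. A match is a description of the letters and not evidence of binding.

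Libraries labelled stn1-226 rif1 deletion held 2211932 to 18909976 ends and stn1-226 libraries held 6285205 to 13347018. The shallowest, that of Pol delta replicate 2 in the labelled deletion, had a median of 39 ends per bin of 300 bp. Both Pol delta replicate 2 libraries also stood apart by bins far above their usual level, with 171 such strand bins in the labelled deletion and 123 in stn1-226, against 0 to 32 in the other 6. Fork polarity of Pol delta replicate 2 and Pol epsilon replicate 2 correlated at r = 0.63 across 10 kb blocks in the labelled deletion and at 0.51 in stn1-226, against 0.96 and 0.95 for replicate 1. Site counts without both Pol delta replicate 2 libraries are given below, and counts that 1 library decides are given without it.

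The deleted gene goes against the label. Ends over rif1 (SPAC6F6.17, chromosome I 2766273 to 2770704) stood at 1.03 and 1.01 times the library's median bin in the Pol delta libraries labelled stn1-226 rif1 deletion and at 1.09 and 1.28 in the Pol epsilon libraries. In stn1-226 they stood at 1.17 and 1.42 (Pol delta) and at 1.10 and 1.15 (Pol epsilon). The groups overlap, with means of 1.10 ± 0.12 and 1.21 ± 0.15 (SD, n = 4 each), and none of the 14 bins inside the gene was empty in any labelled deletion library, the lowest standing at 0.23 times the median bin. Libraries with the same label at 34 °C also held ends over the gene, 1.09 ± 0.08 (SD, n = 4). In the rif1 deletion strains without stn1-226 at 25 °C the gene held 0.018 ± 0.016 (SD, n = 4). The term labelled deletion is used below for this reason, and each direction rests on the label. Over stn1 (SPBC409.12C, chromosome II 1161485 to 1163082), whose allele leaves the gene in place, the labelled deletion held 1.09, 0.88, 1.09 and 2.51 and stn1-226 held 1.30, 1.51, 1.02 and 1.28.

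Initiation was measured as a step: the log2 ratio of ends on the strands that mark forks moving away to ends on those that mark forks moving in, within 3 kb on each side of a site. A step of 0 means that as many forks ran toward the place as away from it. Sites were called from the mean step over 32 libraries of the series, all but taz1 deletion. They were tested by edgeR quasi-likelihood on the mean of both polymerases, at an adjusted p under 0.05. Across 536 sites, the step rose at 23 and fell at 12 in the labelled deletion against stn1-226. These are 4.29% and 2.24% of the sites, 6.53% in all. The median change of all 536 sites was -0.10 log2 for the mean of both polymerases, -0.23 in Pol delta and 0.03 in Pol epsilon. Where a site was called only from the 4 stn1-226 libraries, so that a place without a step there could not enter, 8 rose and 11 fell. With log ratios scaled by each library's polarity, 28 rose and 9 fell.

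The site beside dpe2, a dipeptidyl peptidase gene (SPCC965.12), changed most. It lies between genes at chromosome III 2308801, 944 bp from dpe2. Its step was 1.76 and 2.05 in the Pol delta libraries and 1.70 and 1.11 in the Pol epsilon libraries of the labelled deletion. In stn1-226 it was -0.66 and -0.21 (Pol delta) and -0.26 and -0.40 (Pol epsilon). All 4 labelled deletion libraries stood above all 4 of stn1-226, where every library had more forks approaching than leaving. The change was 2.04 log2 (SE 0.23, edgeR adjusted p = 5.19e-06).

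Beside klp3, which encodes a kinesin-like protein (SPAC1834.07; site at chromosome I 4706401), the labelled deletion had steps of 2.29 and 1.90 (Pol delta) and 2.56 and 1.75 (Pol epsilon). In stn1-226 the steps were -0.02 and -0.21 (Pol delta) and 0.81 and 0.84 (Pol epsilon). The groups were apart by 0.92 log2 or more in every same-numbered pair, and the step rose by 1.78 log2 (SE 0.19, edgeR adjusted p = 5.19e-06).

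At yea4, a transporter gene for UDP-N-acetylglucosamine (SPBC1734.09; site at chromosome II 1079701), the steps of the labelled deletion were 2.43, 2.97, 2.27 and 1.57, in the order Pol delta 1 and 2, Pol epsilon 1 and 2. Those of stn1-226 were -0.12, 0.99, 0.51 and -0.29. No library of one group reached into the other, and the rise was 2.03 log2 (SE 0.28, edgeR adjusted p = 5.99e-05). This site is the one with 2 matches to the consensus within 1 kb.

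Among the other named rises, mug114 (1.96 log2), erg1, which encodes squalene monooxygenase of ergosterol synthesis (1.71 log2), ubc1, a ubiquitin-conjugating enzyme (1.69 log2), and SPBC3B8.08, uncharacterized (1.95 log2), had mean steps between -0.25 and 0.20 in stn1-226. In the labelled deletion the same sites averaged between 1.43 and 2.15. The sites beside pas1, a cyclin gene (1.52 log2), SPAC23H4.05C (1.49), SPAC25A8.03C (1.31), nif1, an inhibitor of the kinase Cdr1 (1.27), coa6 (1.26), ckb2, a regulatory subunit of casein kinase 2 (1.04), and ski7 (0.97) complete the 14 largest rises. Leaving out single libraries ended the call beside pas1 in 4 of 8 cases (without Pol delta 1 or Pol epsilon 2 of stn1-226, or Pol delta 2 or Pol epsilon 1 of the labelled deletion, edgeR adjusted p = 0.0740 to 0.141). The same 4 libraries ended it beside SPAC23H4.05C (0.0628 to 0.0682), and 6 of 8, all but Pol delta 2 of the labelled deletion and Pol delta 1 of stn1-226, beside ski7 (0.0907 to 0.166). They ended no call among the other 11. In pas1 the Pol delta replicate 2 library of stn1-226 had a step of 2.19, against -0.36 to 0.47 in the other 3 of that group, and 1.60 to 2.78 in the labelled deletion.

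The remaining 9 rises were named after their values were seen. They lie beside erf2 (0.97 log2), arv1 (0.85), prl46 (0.84), cnd1, a condensin subunit (0.73), pcs2 (0.73), cuf1, a copper-sensing transcription factor (0.73), SPAC806.06C (0.71), pfl7 (0.65) and SPAPJ695.01C (0.57). In stn1-226 the step of 11 of the 23 risen sites lay below the calling threshold of 0.36, with dpe2 lowest at -0.39 and klp3 highest at 0.356. The other 12 already had a step there, from 0.53 beside pfl7 to 1.41 beside erf2. Over the 23, the median step was 1.77 in the labelled deletion and 0.53 in stn1-226.

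**Figure D1:**
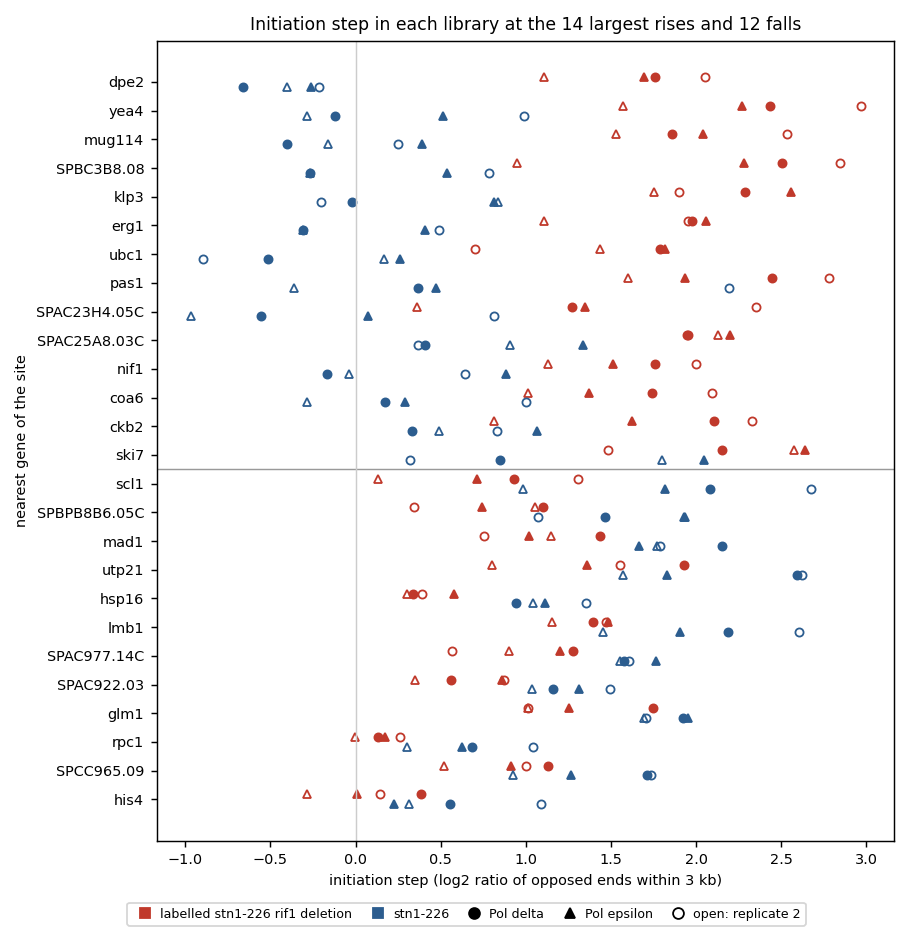
Initiation step (log2 ratio of opposed ends within 3 kb) in each of the 8 libraries at the 14 largest rises (above the line) and the 12 falls (below it), named by the nearest gene. Red marks are libraries labelled stn1-226 rif1 deletion and blue marks stn1-226, circles Pol delta and triangles Pol epsilon, filled replicate 1 and open replicate 2. Beside dpe2 all red marks lie between 1.11 and 2.05 and all blue marks below 0, and beside pas1 1 blue mark lies at 2.19 among the red ones.

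All 4 same-numbered pairs of libraries had the sign of the call at 23 of 23 rises and at 12 of 12 falls, which the call itself favours. At 12 of the 23 rises every labelled deletion library lay above every stn1-226 library. Over all 536 sites this held for 12 as well, 2.24%. It held in the other direction for 5 of the 12 falls and for 9 sites in all, 1.68%. With replicate 1 alone 11 sites rose and 1 fell, with replicate 2 alone 11 rose and 6 fell, and without both Pol delta replicate 2 libraries 19 rose and 3 fell.

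Pol delta libraries alone gave 18 rises and 6 falls, 3.36% and 1.12% of sites and 4.48% in all. Pol epsilon libraries alone gave 7 rises and 2 falls, 1.31% and 0.373% of sites and 1.68% in all. The Pol epsilon rises lay beside dpe2 (1.74 log2), yea4 (1.81), mug114 (1.67), klp3 (1.34), erg1 (1.54), ubc1 (1.41) and SPAC25A8.03C (1.04), which also rose in Pol delta (1.57 to 2.34 log2). The Pol epsilon falls lay beside hsp16 (-0.64) and SPBPB8B6.05C (-1.04). The Pol epsilon count was 0 without Pol epsilon 1 of the labelled deletion or without Pol epsilon 2 of stn1-226, and 4 without Pol epsilon 1 of stn1-226. With only the 8 libraries in the fit, 0 sites passed in either polymerase alone (36 in Pol delta and 15 in Pol epsilon at an unadjusted p under 0.05). The step beside ckb2 changed by 1.63 log2 in Pol delta (edgeR adjusted p = 0.00262) and by 0.44 in Pol epsilon (adjusted p = 0.992). A test of the difference between the polymerases passed at 0 sites in edgeR, with 5 (0.933%) at an unadjusted p under 0.05, and at 0 in DESeq2. The test of the mean of both polymerases was run on simulated data with the same change in both. It recovered 31 of 100 site steps altered by 0.5 log2 and 89 of 100 altered by 1 log2. Most changes of the smaller size would thus be missed by that test. Tests of 1 polymerase and of the difference were not simulated, and their errors are wider. Beside dpe2 the SE was 0.23 for the mean, 0.33 for Pol delta and 0.46 for the difference.

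Read without any choice of sites, at places every 3 kb, the step rose at 31 (0.742%) and fell at 13 (0.311%) of 4177 places, 1.05% in all. With same-numbered replicates as a block 51 rose and 30 fell. Neighbouring places share bins.

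The deepest fall lay beside scl1, which encodes the alpha 1 subunit of the proteasome core (SPBC646.16; site at chromosome II 957301). Steps were 0.93 and 1.31 (Pol delta) and 0.71 and 0.13 (Pol epsilon) in the labelled deletion. They were 2.08 and 2.68 (Pol delta) and 1.82 and 0.98 (Pol epsilon) in stn1-226. Each labelled deletion library was lower than its same-numbered partner, although the groups overlap, and the step fell by 1.12 log2 (SE 0.20, edgeR adjusted p = 0.000607).

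Beside hsp16, a small heat shock protein gene (SPBC3E7.02C; site at chromosome II 2660101), the steps were 0.34, 0.39, 0.58 and 0.30 in the labelled deletion and 0.94, 1.35, 1.11 and 1.04 in stn1-226, in the library order used above. The groups did not overlap, and the step fell by 0.71 log2 (SE 0.11, edgeR adjusted p = 0.000269). Beside rpc1, which encodes the largest subunit of RNA polymerase III (SPBC651.08C; site at chromosome II 1254901), the steps were 0.13, 0.26, 0.17 and -0.0015 in the labelled deletion and 0.68, 1.04, 0.62 and 0.30 in stn1-226. This site and that beside his4, a histidine synthesis gene, are the 2 falls whose mean step in the labelled deletion lay below the calling threshold. The his4 site (chromosome II 3583801) lies in a coding exon, whereas the other 34 called sites lie between genes.

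Falls also lay beside SPBPB8B6.05C, an L-asparaginase gene (-0.78 log2), the spindle checkpoint gene mad1 (-0.75), utp21, a U3 snoRNP protein (-0.74), lmb1 (-0.66), SPAC977.14C (-0.63), SPAC922.03 (-0.59), glm1 (-0.55) and SPCC965.09 (-0.52). Their mean steps were 0.66 to 1.41 in the labelled deletion and 1.25 to 2.15 in stn1-226, so these sites kept a step above the threshold. Leaving out single libraries ended the call beside mad1 in 7 of 8 cases, beside glm1 and rpc1 in 6 each, beside his4 in 5, and beside lmb1, SPAC922.03 and SPCC965.09 in 4 each. It ended none of those beside scl1, SPBPB8B6.05C, utp21, hsp16 and SPAC977.14C. With only the 8 libraries in the fit, however, none of the 12 falls passed (adjusted p = 0.109 beside hsp16 and 0.185 beside scl1), and 6 rises did, beside dpe2, yea4, mug114, klp3, ubc1 and SPAC25A8.03C. The fall beside SPCC965.09 lies 8.7 kb from the rise beside dpe2, and that beside SPAC977.14C lies 17.4 kb from the rise beside SPAPJ695.01C.

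The 10 sites near the Rif1 consensus had a median change of 1.70 log2, against -0.10 for all sites, and 9 of them rose. Their median step was 1.88 in the labelled deletion and 0.17 in stn1-226, where 8 of the 10 lay below the calling threshold. The tenth, beside SPCC338.18, changed by -0.24 log2 (edgeR adjusted p = 0.805). Because a place without a step in stn1-226 entered the 536 sites only through libraries in which it had one, this count is a description. Of the 48 places of the consensus in the genome, 10 have a site within 1 kb and 9 a site that rose. Just inside the limit of 1 kb lie dpe2 (976 bp) and mug114 (958 bp), and just outside it lies SPBC3B8.08 (1128 bp). Of the 23 risen sites 11 have the core GTGGGGG within 1 kb, against 0 of the 12 that fell and 22 of all 536.

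Other site lists are read against the 4.29% of all sites that rose and the 2.24% that fell. Of 9 sites that lie 1 kb or less from paired telomere-like motifs (GGTTAC, both strands, within 200 bp of each other), 4 rose, beside SPAC25A8.03C, coa6, ski7 and SPAC806.06C, and the median change was 0.41 log2. Among 50 sites near tRNA genes 0 rose and 0 fell (median -0.23), and the same held for 25 sites within 50 kb of a centromere (median 0.01). For a list of 25 sites, 0 calls is near that background. Whether 0 calls among 50 sites falls short of it was not tested. In the outer 50 kb of each arm of chromosomes I and II, 0 of 14 sites passed the test (median -0.08), and 50 to 100 kb from them 1 of 16 rose and 2 fell (median -0.05). Beside tlh1 and tlh2, the telomere-linked RecQ-type helicase genes at the outermost sites of chromosomes I and II, the steps averaged 0.47 ± 0.14 and 0.41 ± 0.16 in the labelled deletion and 0.99 ± 0.14 and 0.92 ± 0.21 in stn1-226 (SD, n = 4 each). The changes of -0.52 log2 each did not pass in edgeR (adjusted p = 0.0871 and 0.160) and passed in DESeq2 (adjusted p = 0.00791 and 0.0437). Both genes have near-identical copies at chromosome ends, and how reads with several matches were placed is not given in the sources used here.

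At ars1, the origin beside hus5 (chromosome I 1095901), whose product conjugates SUMO, the steps were 1.33, 1.32, 1.42 and 1.28 in the labelled deletion and 1.68, 1.70, 1.74 and 1.62 in stn1-226. The groups did not overlap, yet the change of -0.34 log2 did not pass the test (SE 0.17, edgeR adjusted p = 0.361), whose spread is shared by all 16 groups in the fit. The site nearest ura4, beside tam14, changed by -0.32 log2 (adjusted p = 0.708).

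A change of direction extended well past the site. In rings of 3 kb around the 23 risen sites, the median log2 ratio of leaving to approaching forks was 1.77, 1.84, 1.55, 1.11 and 0.56 out to 15 kb in the labelled deletion. In the same rings of stn1-226 it was 0.53, -0.02, -0.29, -0.29 and -0.66. The labelled deletion was the higher at 23 of 23 sites in each of these rings, and the median difference was largest, 1.63 log2, between 3 and 6 kb from the site. It was 0.62 between 18 and 21 kb and 0.21 between 27 and 30 kb, where 17 of 23 sites were higher, and from -0.19 to 0.08 beyond 33 kb. Within 3 kb the sites were chosen by this difference, so these values describe the calls. The outer rings are read from other bins of the same libraries, so their values are not independent of that choice.

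Around the 12 sites that fell, the median difference was -0.65 log2 within 3 kb, -0.49 between 3 and 6 kb, and 0.61 between 18 and 21 kb, where 11 of 12 were higher in the labelled deletion. Around the 501 sites that did not pass the test, it was -0.11 within 3 kb and -0.01 between 18 and 21 kb.

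**Figure D2:**
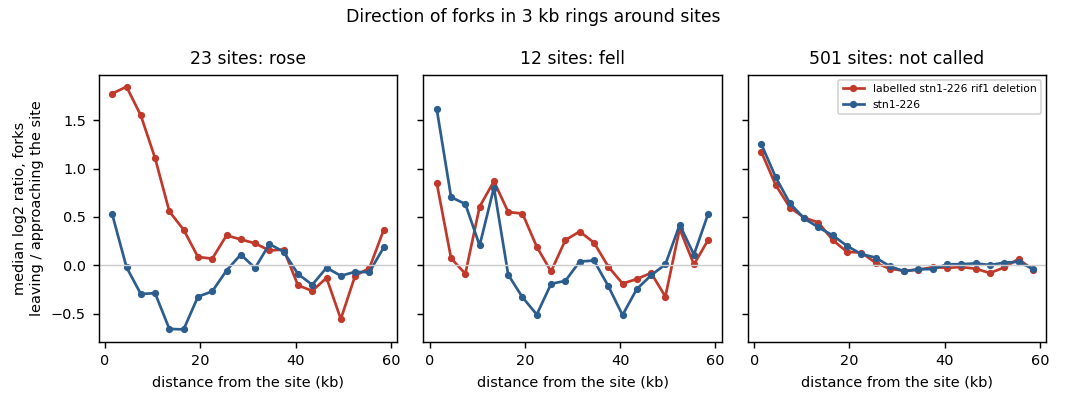
Median log2 ratio of forks leaving to forks approaching a site (vertical axis) in rings of 3 kb by distance from the site (horizontal axis, kb), for sites that rose, fell or did not pass the test. Red is labelled stn1-226 rif1 deletion and blue stn1-226, each the mean of 4 libraries per site before the median. At risen sites the red curve starts at 1.77 and the blue at 0.53, and they meet past 30 kb.

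Sites next to a risen site were compared in the same way. The 44 nearest neighbours, a median of 22.35 kb away, had a median change of -0.14 log2, against -0.10 for all sites, and 72.7% of them were lower, against 67.2% of all sites. The fall beside SPCC965.09 was the only call among them. Beside klp3, the neighbouring sites at rps1102 and dli1, 32.4 and 33.0 kb away, changed by 0.64 and -0.21 log2 (edgeR adjusted p = 0.547 and 0.785). Called separately, the labelled deletion had 544 sites and stn1-226 had 517, with a median spacing of 20.1 and 20.25 kb. Of the sites in the labelled deletion 62 had no counterpart within 3 kb in stn1-226, and 35 the other way round.

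Fork polarity, the log2 ratio of rightward to leftward forks in blocks of 10 kb, shifted rightward in 196 blocks (15.6%) and leftward in 204 (16.3%) of 1255, 31.9% in all (edgeR, mean of both polymerases). In 131 of these 400 blocks the sign itself differed between the conditions. Within 30 kb of a risen site 105 of 138 blocks passed, 76.1%, with a median absolute change of 0.79 log2. Between 30 and 60 kb 44 of 126 passed, 34.9%, and beyond 60 kb 251 of 991, 25.3%, with a median absolute change of 0.22 log2. On chromosome III 40 of 243 blocks passed. Risen sites were chosen by a change of fork direction in the same libraries, so a higher share of blocks near them is partly built in. The shares near risen sites, and the single blocks beside them given below, therefore describe the calls.

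The block that shifted most lies at chromosome II 3369901 to 3380100, and holds the site beside SPBC3B8.08 near its right edge. Polarity there was -2.21, -1.72, -1.70 and -1.47 in the labelled deletion (Pol delta 1 and 2, Pol epsilon 1 and 2). It was 1.88, 2.39, 1.39 and 0.96 in stn1-226. Forks thus ran mostly leftward in all 4 labelled deletion libraries and mostly rightward in all 4 of stn1-226, a change of -3.44 log2 (SE 0.20, edgeR adjusted p = 5.27e-11).

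Right of the site beside klp3 (chromosome I 4710001 to 4719900) the polarity was 1.15, 1.23, 1.13 and 0.97 in the labelled deletion and -1.78, -1.71, -1.34 and -1.29 in stn1-226. Forks again ran in opposite directions in the conditions, and the change was 2.65 log2 (SE 0.13, edgeR adjusted p = 3.28e-12). Left of the site beside mug114 (chromosome I 2649901 to 2660100) it averaged -0.72 ± 0.08 in the labelled deletion and 2.01 ± 0.34 in stn1-226 (SD, n = 4 each).

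Of the other 7 most shifted blocks, 6 lie within 20 kb of the risen sites beside pcs2 (2.60 log2), yea4 (2.54 and 2.18), pas1 (2.29) and erg1 (-2.57 and -2.41). The seventh, at chromosome I 5259901 (-2.52 log2), lies 57 kb from the nearest risen site, that beside ski7. Its polarity was -2.16 ± 0.82 in the labelled deletion and 0.36 ± 0.58 in stn1-226 (SD, n = 4 each). In Pol delta alone 300 blocks passed, 23.9%, and in Pol epsilon alone 189, 15.1%. The difference between polymerases passed in 0 blocks in edgeR and in 53 (4.22%) at an unadjusted p under 0.05.

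**Figure D3:**
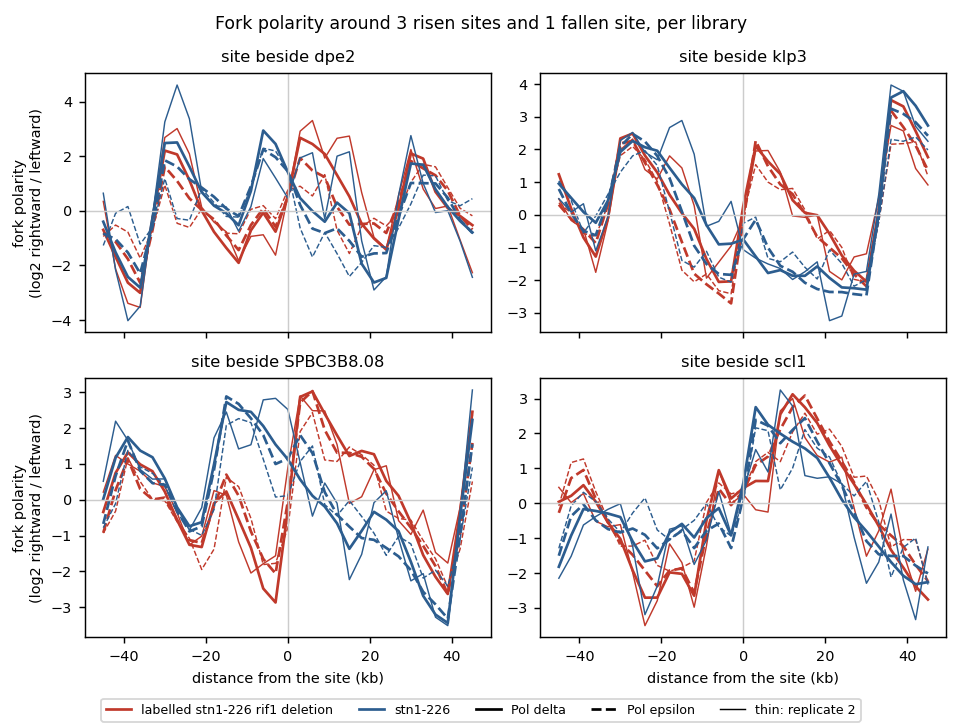
Fork polarity (log2 rightward over leftward forks, vertical axis) by distance in kb from 3 risen sites and 1 fallen site, in each of the 8 libraries. Red is labelled stn1-226 rif1 deletion and blue stn1-226, solid Pol delta and dashed Pol epsilon, thick replicate 1 and thin replicate 2. Right of the klp3 site, at 3 kb, the red lines lie between 1.54 and 2.27 and the blue lines between -1.33 and -0.07.

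Total ends, both strands summed in blocks of 50 kb, moved in opposite directions in the 2 kinds of library. In Pol delta libraries 45 blocks rose (17.9%) and 62 fell (24.6%) of 252, 42.5% in all (edgeR). In Pol epsilon libraries 11 rose (4.37%) and 26 fell (10.3%), 14.7% in all. The sign was opposite in 219 of 252 blocks, 86.9%, and 33 blocks passed in opposite directions in both, with 0 passing in the same direction. Without Pol epsilon 2 of the labelled deletion, 0 blocks passed in Pol epsilon, and hence none in both polymerases. The Pol epsilon count was 22 without Pol epsilon 1 of the labelled deletion, 7 without Pol epsilon 2 of stn1-226 and 18 without Pol epsilon 1 of stn1-226. Without Pol delta 2 of stn1-226, 63 passed in Pol delta. With only the 8 libraries in the fit, 31 passed in Pol delta and 0 in Pol epsilon. The mean of both polymerases changed in 0 blocks in edgeR, with 14 (5.56%) at an unadjusted p under 0.05, and in 0 in DESeq2. The change in Pol delta minus that in Pol epsilon passed in 126 blocks, 50% of them, of which 58 (23.0%) were positive and 68 (27.0%) negative. Each library's ends are relative to its own total, so a rise in some blocks and a fall in others are tied to each other.

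The ends of chromosomes I and II moved most. The first 50 kb of the left arm of chromosome I held 1.57 and 1.54 times the median block in the Pol delta libraries of the labelled deletion and 1.07 and 1.05 in those of stn1-226. In the Pol epsilon libraries it held 1.09 and 1.11 in the labelled deletion and 1.33 and 1.34 in stn1-226. In both kinds of library the conditions did not overlap, and the direction was opposite. The change was 0.53 log2 in Pol delta (SE 0.09, edgeR adjusted p = 0.000133) and -0.29 in Pol epsilon (SE 0.09, adjusted p = 0.0386).

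All 4 terminal blocks of chromosomes I and II rose in Pol delta libraries, by 0.53 and 0.61 log2 at the left and right of chromosome I and by 0.57 and 0.58 at those of chromosome II. In Pol epsilon libraries the same blocks changed by -0.29, -0.22, -0.31 and -0.39, of which both left ends passed the test (adjusted p = 0.0386 and 0.00594) and the right ends did not (0.0565 and 0.142). Both Pol epsilon calls were lost without Pol epsilon 2 of the labelled deletion and with only the 8 libraries in the fit. At the right end of chromosome II, Pol delta libraries held 2.04 and 2.07 times the median block in the labelled deletion and 1.39 and 1.33 in stn1-226. The 4 second blocks, 50 to 100 kb from the ends, rose by 0.36 to 0.52 log2 in Pol delta. In all 8 of these blocks both Pol delta libraries of the labelled deletion lay above both of stn1-226, and both Pol epsilon libraries below, which each held for 25.8% of all 252 blocks.

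Further in, the change was smaller. The change in Pol delta minus that in Pol epsilon averaged 0.87 log2 over the 4 first blocks, 0.63 over the second, 0.20 over the third and 0.03 over the fourth. It was 0.14, 0.18 and 0.17 over the fifth to seventh, and over blocks 6 to 10 its median was 0.10, with 6 of 20 passing as positive and 1 as negative. Past the tenth block, on chromosomes I and II, its median was -0.01 with 39 blocks positive and 31 negative among those that passed, of 162. The 2 end blocks of chromosome III, which flank the ribosomal DNA repeats and held on median 9.12 times the median block in Pol delta libraries of the labelled deletion and 10.5 times in stn1-226, did not pass (median -0.10). Within the libraries of 1 polymerase, more copies of a block and more ribonucleotides left in each copy cannot be told apart from these totals. In the 4 first blocks of chromosomes I and II the change was upward in Pol delta and downward in Pol epsilon, and its cause was not tested.

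**Figure D4:**
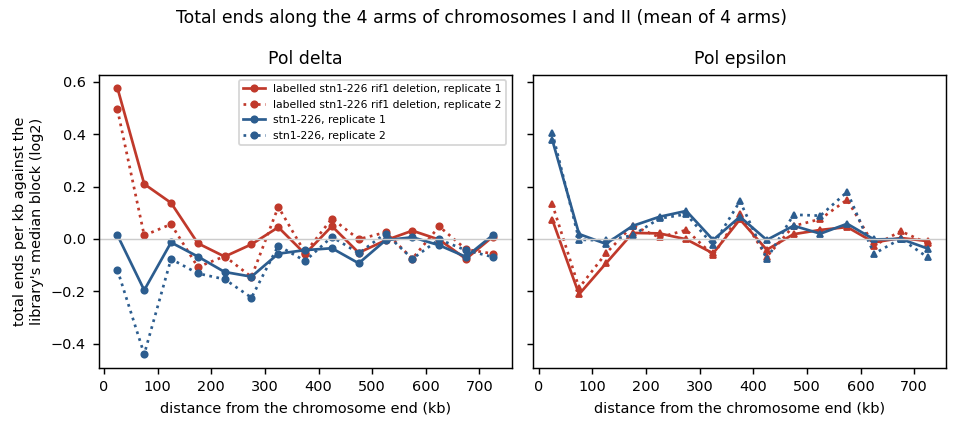
Total ends per kb against the library's median block (log2, vertical axis) by distance from the chromosome end (kb, horizontal axis), as the mean of the 4 arms of chromosomes I and II, for Pol delta (left) and Pol epsilon (right). Red is labelled stn1-226 rif1 deletion and blue stn1-226, solid replicate 1 and dotted replicate 2. In the outermost block the red Pol delta lines stand at 0.58 and 0.49 and the blue at 0.01 and -0.12, whereas the red Pol epsilon lines stand at 0.07 and 0.13 and the blue at 0.38 and 0.41.

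Blocks with a risen site moved in the same direction as the ends. Among blocks of chromosomes I and II past the fifth from an end, 19 held a risen site. Of these 12 rose in Pol delta and 0 fell, against 17.9% and 24.6% of all blocks, and 7 fell in Pol epsilon and 0 rose, against 10.3% and 4.37%. Their median change of Pol delta minus Pol epsilon was 0.31 log2, with 15 passing as positive and 0 as negative. In the 163 such blocks without a risen site the median was -0.02, with 30 passing as positive and 32 as negative. Blocks of chromosome III moved the other way: 34 of 50 fell in Pol delta, 8 rose in Pol epsilon, and the median difference was -0.26 log2. Chromosome III held 23.7 and 22.1% of all ends in the Pol delta libraries of the labelled deletion and 26.2 and 24.7% in those of stn1-226. In Pol epsilon libraries it held 21.4 and 20.2% in the labelled deletion and 20.1 and 19.2% in stn1-226. The lowest value in Pol delta, -0.42 log2, was that of the block with the centromere of chromosome II (1599901 to 1650000, edgeR adjusted p = 0.00611).

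Taken over all blocks, Pol delta and Pol epsilon levels lay closer together in the labelled deletion, but not at the ends of chromosomes I and II. In the 4 terminal blocks the median log2 ratio of Pol delta to Pol epsilon levels was 0.44 in the labelled deletion and -0.45 in stn1-226. In the 4 second blocks it was 0.31 and -0.31. Across the 252 blocks the log2 ratio of their levels had an SD of 0.20 in the labelled deletion and 0.27 in stn1-226. The changes in Pol delta and in Pol epsilon correlated at r = -0.86 over the 252 blocks, which share their libraries and the scaling to a total. The change of the difference correlated at r = 0.51 with the AT content of the block. Base content explained more of the variance of ends in replicate 2, and more there in stn1-226. On chromosome I its share in replicate 2 was 25.2% (Pol delta) and 15.5% (Pol epsilon) in the labelled deletion. In stn1-226 it was 43.9% and 25.2%. In replicate 1 it was 3.60 to 7.73%. The part of base content in these changes was not tested.

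**Figure D5:**
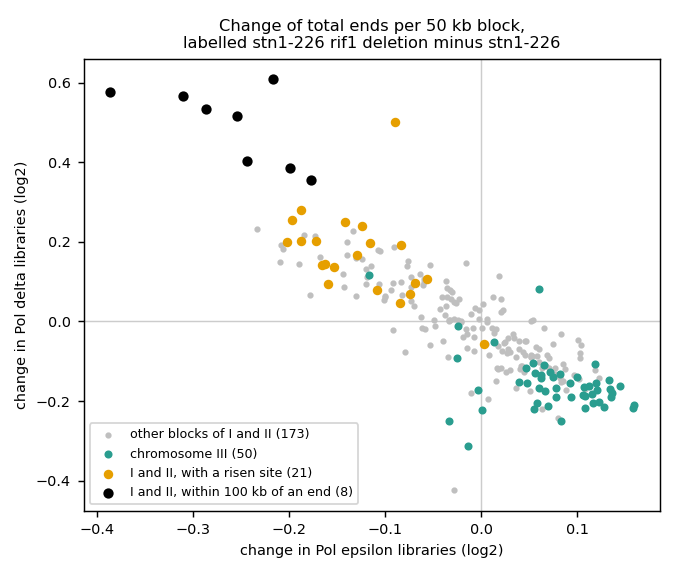
Change of total ends (log2, labelled stn1-226 rif1 deletion minus stn1-226) in Pol delta libraries (vertical axis) against that in Pol epsilon libraries (horizontal axis), with 1 point per block of 50 kb. Black points are the 8 blocks in the outer 100 kb of chromosomes I and II, orange points other blocks of these chromosomes with a risen site, green points chromosome III, grey points the rest. The black points lie between 0.36 and 0.61 in Pol delta and between -0.39 and -0.18 in Pol epsilon.

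The same measures were set beside rif1 deletion against wild type at 25 °C, 8 libraries that share none with those above. Those strains are otherwise marked: rif1 is replaced by BSD and rnh201 by kan in the deletion, wild type carries rnh201-RED:kan and h-, and all have the same 2 kinds of polymerase mutation (written cdc6-L591G in these labels, and cdc20-M630F), an ade6 marker allele, leu1-32 and ura4-D18. The mean step at dpe2 was 1.80 in rif1 deletion and -0.30 in wild type, where the labelled deletion and stn1-226 had 1.65 and -0.39. At scl1 it was 0.81 in rif1 deletion and 1.75 in wild type, against 0.77 in the labelled deletion and 1.89 in stn1-226. A difference between the 2 changes passed at 0 of 536 sites in edgeR, with 1 (0.187%) at an unadjusted p under 0.05, and at 0 in DESeq2. For fork polarity it passed in 0 of 1255 blocks in edgeR, with 23 (1.83%) at an unadjusted p under 0.05. That no site or block passed does not show that the changes were equal. The differences ran from -0.88 to 0.46 log2 among all sites and from -1.82 to 0.78 log2 among all blocks of fork polarity.

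For total ends, the change of Pol delta minus Pol epsilon passed in 124 of 252 blocks in rif1 deletion against wild type, 49.2%, in 59 (23.4%) with a positive and in 65 (25.8%) with a negative sign, and the 2 sets of changes correlated at r = 0.88 across blocks. The 4 terminal blocks had a median of 0.85 log2 in the labelled deletion against stn1-226 and of 0.71 in rif1 deletion against wild type. A difference passed in 0 blocks in edgeR, with 10 (3.97%) at an unadjusted p under 0.05. In stn1-226 against wild type at 25 °C the median of the same 4 blocks was 0.01.

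At 34 °C the labelled deletion against stn1-226 gave a smaller change at the ends. The median of the 4 terminal blocks was 0.85 log2 at 25 °C and 0.14 at 34 °C, and 5 of 252 blocks passed at 34 °C, 1.98%. The difference between the temperatures passed in 4 blocks, 1.59%, all within 100 kb of an end of chromosome I or II: 0.73 log2 at the left end of chromosome I and 0.63 at its right end (edgeR adjusted p = 0.0295 each), 0.64 at the left end of chromosome II and 0.48 in the second block from its right end (adjusted p = 0.0171 each). The widest difference, 1.07 log2 at the right end of chromosome II, had a wider error (SE 0.34) and did not pass (edgeR adjusted p = 0.124). The change there was 0.96 log2 at 25 °C and -0.11 at 34 °C. Steps differed between the temperatures at 0 of 536 sites in edgeR, with 2 (0.373%) at an unadjusted p under 0.05, and at 0 in DESeq2. In rif1 deletion against wild type the median change of Pol delta minus Pol epsilon in the 4 terminal blocks was also lower at 34 °C. It was 0.42 log2, against 0.71 at 25 °C, and that difference was not tested.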

How the data were processed

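The authors deposited unscaled counts: whole numbers of ends for each strand and 300 bp bin. Per the submitters' processing notes the aligner was Bowtie2. Its version, and the build, were not given in the sources used here. Bins were placed on ASM294v3 (RefSeq), with chromosome III of replicate 1 shifted by 15000 bp; at the offset used or within 1 bin of it, base content explained 2.20 to 43.9% of the variance of ends, against at most 2.32% elsewhere. The margin was small for replicate 1 (2.20% against 1.70% on chromosome III of stn1-226 Pol delta 1).

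The step compared 10 bins on each side. Sites are local maxima above 0.36 log2 (20% of the 99th percentile) of the step averaged over the 32 libraries, each with equal weight. Total ends were scaled by TMM. The quasi-likelihood test of edgeR 4.0.16 (R 4.3.3) was fitted to 32 libraries in 16 groups (all but taz1 deletion), with 16 residual degrees of freedom, features under a mean of 10 ends left out, and Benjamini-Hochberg adjustment over all features; for steps and polarity the library was a block for its opposed counts. DESeq2 1.42.0 and limma 3.58.1 were alternatives. Log ratios of single libraries used a pseudocount of 0.5 ends. On simulated data the test of the mean called 4 of 336 unchanged sites, and for 50 kb blocks it found 25 of 25 changes of 0.25 log2. All simulated features had the same dispersion, the median of the real fit, so real features with a wider spread are harder to call. In the block with the centromere of chromosome II a real mean change of -0.23 log2 (SE 0.08) did not pass (edgeR adjusted p = 0.604). Tables and figures used Python 3.11.15, numpy 2.4.6, pandas 2.3.3 and matplotlib 3.10.9.

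Named sites are the 14 largest rises and 12 largest falls past the threshold, with hus5, ura4, tlh1 and tlh2, and for polarity and total ends the 5 largest changes each way. The members, site lists and naming rule were chosen with earlier results of these data known. The sequence beside 1 of the 10 sites near the consensus is not reported here.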

Additional observations from a re-analysis of the deposited data

Results flagged for a closer look

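Of 64 groups of 4 libraries examined for a single far value, 2 had one, and chance gives about 1 in 20. The step beside erg1 was 1.11 in Pol epsilon replicate 2 of the labelled deletion, where the other 3 libraries had 1.95 to 2.06. Ends over stn1 stood at 2.51 times the median bin in the same library, where the other 3 had 0.88 to 1.09.

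The change of total ends differed between Pol delta and Pol epsilon libraries in 126 blocks of 50 kb (edgeR, test of the difference). The change of Pol delta minus Pol epsilon also differed between 25 °C and 34 °C in 4 blocks. It was higher at 25 °C by 0.73 log2 in the left terminal block of chromosome I (0.82 at 25 °C, 0.09 at 34 °C), by 0.63 in its right terminal block (0.83 and 0.20), by 0.64 in the left terminal block of chromosome II (0.88 and 0.24) and by 0.48 in the second block from the right end of chromosome II (0.65 and 0.16).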

How the results depend on the processing

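Of the alternatives for named sites, 505 left direction and call as they were, 130 lost the call, 4 gained it and 0 turned the direction; of those for counts of calls, 99 stayed within 1.5 times and 31 did not. With only the 8 libraries in the fit, 6 sites passed (0 in Pol delta and 0 in Pol epsilon alone, with 36 and 15 at an unadjusted p under 0.05), 208 blocks of fork polarity, and 31 (Pol delta), 0 (Pol epsilon) and 66 (their difference) blocks of total ends. Without 1 library at a time, 22 to 33 sites passed (13 to 23 in Pol delta, 0 to 10 in Pol epsilon), 314 to 398 polarity blocks, and 0 to 1 (mean), 63 to 109 (Pol delta), 0 to 45 (Pol epsilon) and 99 to 136 (difference) blocks of total ends. The lowest site count came without stn1-226 Pol delta 2 or without Pol epsilon 1 of the labelled deletion (23 without its Pol epsilon 2); Pol epsilon blocks of total ends fell to 0 without Pol epsilon 2 of the labelled deletion. Counts of sites were 22 with 5 bins on each side, 69 with 20 bins, 19 with sites called in stn1-226 only, 21 with sites called in wild type only, 22 without both Pol delta replicate 2 libraries (chosen after seeing the data, as were the next), 12 within replicate 1 and 17 within replicate 2. Polarity passed in 96 of the 50 kb blocks and in 257 blocks within replicate 2, and the difference of total ends in 73 within replicate 1. With the replicate block 81 places of the 3 kb grid passed, and 43 sites, 463 polarity blocks and 155 blocks of the difference of total ends; the block moved no other count by over 1.5 times. Deviations of same-numbered libraries from their group means correlated at 0.88 (Pol delta) and 0.85 (Pol epsilon) over sites, a hint from the data, as the labels do not say what a number stands for. The cause of these shifts was not tested, except that fewer libraries leave fewer degrees of freedom. Depth limits Pol delta replicate 2 of the labelled deletion, and replicates may be technical.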
